A study of Mus musculus with 6 samples.

Results

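Iron and 2-oxoglutarate dependent dioxygenases were followed in IL4-treated mouse macrophages exposed to 5 compounds. The genes were taken by symbol from a list of 44 that holds histone lysine demethylases, other JmjC-domain and asparaginyl hydroxylases, TET enzymes, collagen prolyl and lysyl hydroxylases, the AlkB family, and the OGFOD and phytanoyl-CoA hydroxylases. All 44 symbols were present among the 16775 genes of the deposited tables. Of these, 41 reached at least 1 CPM (counts scaled to the library total) in at least 1 library, and 11898 genes in all passed the same filter. Kdm4d, Tet1 and P4ha3 did not, with highest values of 0.0482, 0.496 and 0.530 CPM. Lowest among the 41 by their highest value were Kdm8 and Alkbh2, at 4.01 and 4.24 CPM.

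The cells were bone marrow derived macrophages of C57BL/6 mice, grown from marrow over 5 days in DMEM with 10% serum and M-CSF, the macrophage growth factor, at 10 ng/ml. IL4, the cytokine that brings macrophages into an alternatively activated state, was present in every culture. The 6 treatments, each of 24 hours, were IL4 alone, IL4 with fatostatin, IL4 with betulin, IL4 with 25-HC, IL4 with PF429424 and IL4 with 1,10-Phen. Fatostatin and betulin are known to block the activation of SREBPs, the transcription factors of sterol and fatty acid synthesis. What 25-HC, PF429424 and 1,10-Phen act on, SREBPs or other targets, is not described here. Each treatment was measured in 1 library made from 1 ug of RNA, no library without IL4 was analysed here, and neither doses nor the number of mice are stated in the sources used here. No difference between treatments therefore has a replicate check, and each ratio compares a pair of libraries.

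These enzymes hold a ferrous iron in the active site and use molecular oxygen and 2-oxoglutarate to hydroxylate a substrate, giving off succinate and carbon dioxide. On a methyl group the hydroxylation ends in removal of the methyl as formaldehyde, which is how JmjC demethylases act on histones, and how AlkB enzymes act on RNA and DNA. The same chemistry marks collagen and the hypoxia-inducible factors (HIF), which are degraded after prolyl hydroxylation. In macrophages the H3K27 demethylase Kdm6b is known for its part in the response to IL4, and Tet2 for restraint of inflammatory genes.

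Library totals lay between 20181396 and 21169667 estimated counts. Counts were rounded and scaled between libraries with TMM factors of 0.900 to 1.064, and each compound was set against IL4 alone as a log2 ratio of counts, with 2 added to each as a prior count. The median ratio over all 11898 genes was between -0.02 and 0.02 in each of the 5 comparisons. Calls of higher or lower required a ratio of 2-fold or more, where the exact Clopper-Pearson 95% interval of the ratio excluded no change. Intervals cover counting error only. A second, looser call used 1.5-fold with the same interval. All 8 macrophage markers were above the filter, with a summed level between 4488 FPKM (1,10-Phen) and 8126 FPKM (fatostatin), where FPKM is the deposited level per transcript length and library size. With 1,10-Phen, 2 of the 8 were lower by the 2-fold rule, where 11.8% of all genes were. All 10 G2/M genes, which mark dividing cells, were lower in that library, with a summed level of 9.74 FPKM against 300 with IL4 alone. With PF429424 1 macrophage marker and 8 G2/M genes were lower, where 5.63% of all genes were. With 25-HC 2 and 4 were lower, where 5.69% were, and 1 macrophage marker was higher. The summed G2/M level was 109 FPKM with PF429424 and 145 FPKM with 25-HC. With fatostatin and betulin no gene of either list was called lower. Of 11 compared neutrophil markers 8 were lower with 1,10-Phen and 7 with PF429424. The part of these shifts in the values below was not tested. In bulk RNA, fewer cells of a type and less RNA per cell cannot be told apart.

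Among the 41 measured genes, 2-fold calls against IL4 alone were found with 1,10-Phen and with none of the other 4 compounds. With 1,10-Phen 10 of 41 were called higher, 24.4%, where 7.59% of all compared genes were. These were P4ha2, Plod2, P4ha1, Kdm3a, Alkbh5, Jmjd6, Kdm5b, Asph, Kdm4b and Kdm2a. Kdm2b was the 1 gene of 41 called lower, 2.44%, where 11.8% of all genes were. Scaling to library totals, in place of TMM, gave 9 higher and 3 lower. The median ratio of the 41 with 1,10-Phen was 0.24 in the TMM scaling and 0.00 with library totals, which moved the median of all genes to -0.25. Counting intervals lay above no change for 23 of the 41, below it for 11 and included it for 7. Over the 11898 genes they lay above for 4278, below for 4402 and included no change for 3218. Near the 2-fold line, Kdm2a (1.05) and Kdm2b (-1.13) fell inside it and Phyh (-0.96) and Jmjd1c (0.87) outside.

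None of the 41 was called at 2-fold with fatostatin, where 0.874% of all genes were called higher and 1.06% lower. The same held for betulin, with 1.91% of all genes higher and 2.29% lower. It held for 25-HC, with 3.27% higher and 5.69% lower, and for PF429424, with 2.49% higher and 5.63% lower. Whether 0 of 41 differs from these shares was not tested. Over the 5 libraries without 1,10-Phen, 27 of the 41 stayed under 1.5-fold between their highest and lowest scaled level. That share was 65.9%, beside 60.5% of all compared genes. The smallest of these ratios was 1.06, for Phf2, and the largest 2.29, for P4ha2, which reached 33.4 when the 1,10-Phen library was included.

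The 1,10-Phen library was also set against all 5 other libraries, IL4 among them. It held the highest level of 21 of the 41 genes (30.5% of all genes) and the lowest level of 12 (34.4% of all genes). A level at least 1.5-fold beyond that of the nearest other library, with an interval excluding no change, was found for 10 genes above and 2 below, Kdm2b and Phyh. Over all genes the shares were 7.28% above and 9.95% below. The 10 above were the same 10 genes as in the 2-fold call against IL4. Both rules use the same 1,10-Phen counts and the IL4 library, so this overlap is no separate check. The overlap over all genes was not counted. None of the 41 stood apart in this way in any of the other 5 libraries. The shares of all genes there were 0.815% above and 0.395% below with IL4 alone, 0.328% and 0.143% with fatostatin, and 0.151% and 0.0925% with betulin. They were 0.597% and 0.714% with 25-HC, and 0.235% and 0.387% with PF429424.

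**Figure D1:**
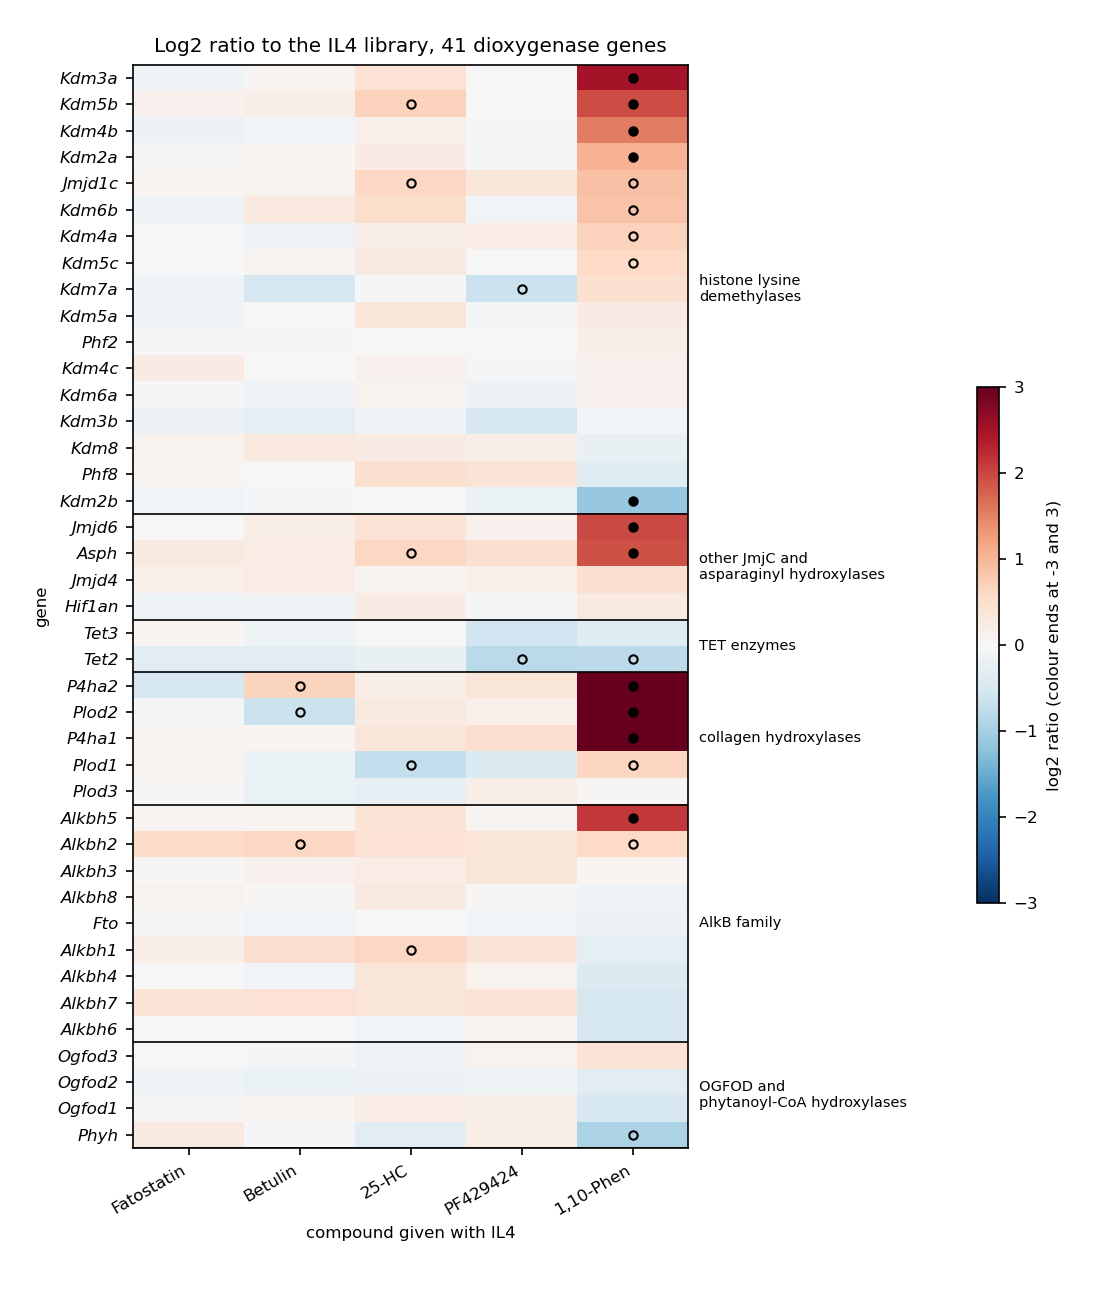
Colours give log2 ratios of compound to IL4 library for the 41 measured dioxygenase genes, grouped by class, with 1 column per compound. Filled circles mark ratios of 2-fold or more and open circles 1.5-fold or more, both with a counting interval that excludes no change, and all 11 filled circles lie in the 1,10-Phen column.

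**Figure D2:**
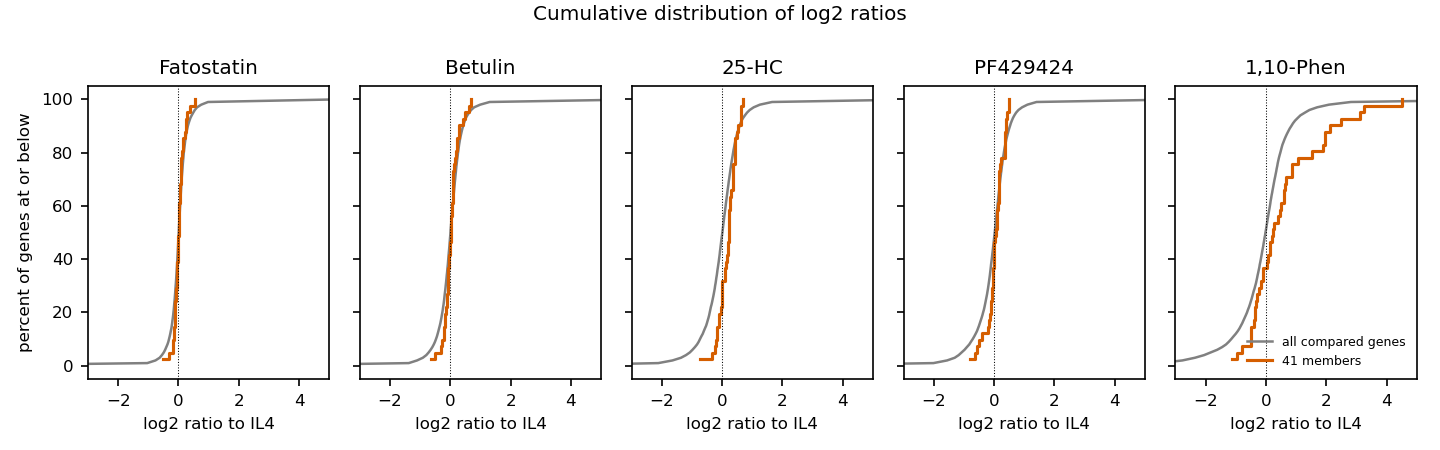
Percent of genes at or below each log2 ratio to IL4, for the 41 dioxygenase genes and for all 11898 compared genes, in 1 panel per compound. The curves for fatostatin and betulin lie close together, and with 1,10-Phen the dioxygenase curve runs to the right at its upper end, where 10 of 41 genes exceed 2-fold.

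The collagen hydroxylases held the largest ratios. Prolyl hydroxylation by P4ha1 and P4ha2, the catalytic alpha subunits, stabilises the collagen triple helix, and the lysyl hydroxylases Plod1, Plod2 and Plod3 prepare collagen lysines for crosslinks and sugars. With 1,10-Phen 3 of the 5 measured genes were called higher and none lower, and their ratios ran from 0.04 to 4.53.

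P4ha1 (chr10:59323197-59373304, GRCm38) had 3316 counts with IL4 alone, 3505 with fatostatin, 3442 with betulin, 4345 with 25-HC, 4396 with PF429424 and 24982 with 1,10-Phen. The 1,10-Phen library lay far above 5 libraries that were close to each other. The ratio to IL4 was 8.66-fold (log2 3.11, interval 3.06 to 3.17). P4ha2 (chr11:54100924-54131668) had 147, 102, 234, 172 and 180 counts in the libraries of IL4, fatostatin, betulin, 25-HC and PF429424, and 2993 with 1,10-Phen. It was low in 5 libraries, with a spread among them between fatostatin and betulin, and 23.1-fold above IL4 in the sixth (log2 4.53, interval 4.31 to 4.80). That ratio ranked 29 from the top of the 11898 genes, beside 88 for P4ha1 and 79 for Plod2. Plod2 (chr9:92539636-92608428), which hydroxylates lysines in the collagen telopeptides, had 66 counts with IL4, 62 with fatostatin, 41 with betulin, 82 with 25-HC, 70 with PF429424 and 556 with 1,10-Phen. Its level was the lowest of the 41 with IL4 alone, 0.89 FPKM, and 7.20 FPKM with 1,10-Phen, a ratio of 9.43-fold (log2 3.24, interval 2.91 to 3.67).

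The other lysyl hydroxylases had smaller ratios. Plod1 had 3749 counts with IL4, 3973 with fatostatin, 3247 with betulin, 2279 with 25-HC, 2691 with PF429424 and 5091 with 1,10-Phen. It was thus 1.56-fold above IL4 with 1,10-Phen (log2 0.64, interval 0.58 to 0.70, and 0.54 against the fatostatin library) and 1.68-fold below it with 25-HC (log2 -0.75, interval -0.83 to -0.68). Plod3, which also has collagen glycosyltransferase activity, had between 2510 and 3115 counts over the 6 libraries, and its ratio with 1,10-Phen was 0.04 with an interval of -0.04 to 0.12. Per length, Plod2 made up 0.820% of the summed Plod level with IL4 alone and 5.71% with 1,10-Phen, while Plod3 went from 46.9% to 34.8%. In the P4ha family P4ha2 made up 5.48% with IL4 alone and 13.7% with 1,10-Phen, so P4ha1 remained the main transcript, at 86.3%. The summed level of the 5 genes was between 147 and 167 FPKM in 5 libraries and 588 FPKM with 1,10-Phen.

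**Figure D3:**
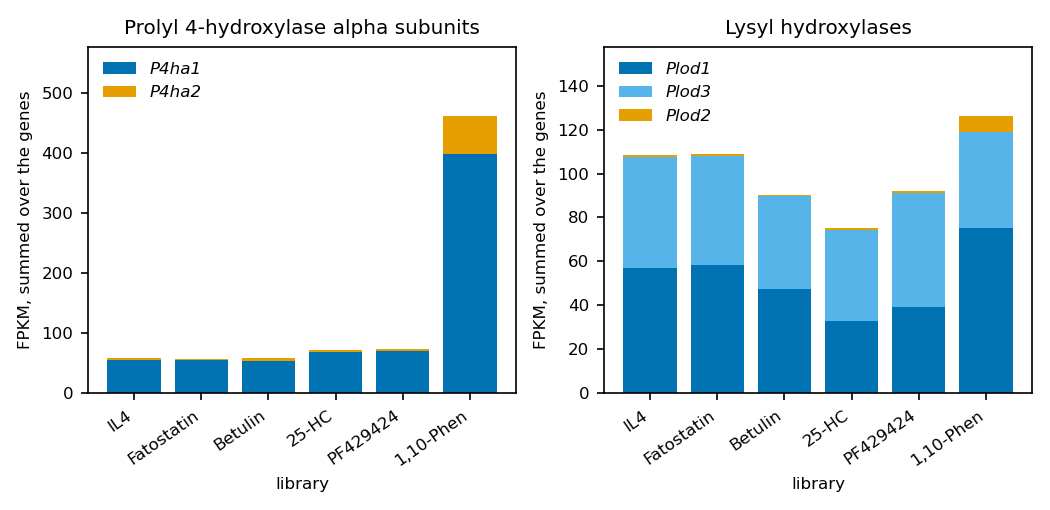
Deposited FPKM of the P4ha genes (left) and of the Plod genes (right) in the 6 libraries, stacked by gene from 0. P4ha1 makes up most of the P4ha bar in every library and reaches 398 FPKM with 1,10-Phen, and Plod2 is a thin layer that is widest, at 7.20 FPKM, with 1,10-Phen.

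The partners and substrates of these enzymes were read from a separate list of 13 genes, 12 of them compared. With 1,10-Phen 2 were called higher and none lower, where 7.59% of all genes were higher and 11.8% lower. Crtap, a subunit of the collagen prolyl 3-hydroxylase complex, had 1237 counts with IL4 and 2964 with 1,10-Phen (log2 1.46). P4hb, the protein disulfide isomerase that is the beta subunit joined by P4ha1 and P4ha2, went from 13486 to 27485 counts (log2 1.23). The lowest well-measured ratios were those of the collagen chaperone Serpinh1 (-0.44) and the collagen galactosyltransferase Colgalt1 (-0.24). The collagen chains Col1a1 and Col1a2 had ratios of 0.09 and -0.12, so these substrate transcripts differed by less than 2-fold in that comparison. With betulin 4 of the 12 were called lower (2.29% of all genes), with 25-HC 2 (5.69%) and with PF429424 5 (5.63%). Stromal cells are the usual source of these chains, and 5 of 9 stromal markers passed the filter. The summed level of the 9 was between 7.67 FPKM (betulin) and 21.7 FPKM (IL4), with 18.7 FPKM for 1,10-Phen. The 9 include Col1a1 and Col1a2 themselves, at 8.49 and 9.84 FPKM with IL4 and 7.62 and 7.64 FPKM with 1,10-Phen. The sum is therefore not separate from the values of these chains. Pdgfra and Pdgfrb were at 0.20 and 0.31 FPKM with IL4, and Lum was at 0 counts in the libraries of IL4, PF429424 and 1,10-Phen.

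Promoter sequences are shown for genes that moved together with 1,10-Phen and for family members that did not. P4ha1, P4ha2, Plod2, Kdm3a and the HIF prolyl hydroxylase Egln3 are known as HIF targets, and HIF binds DNA at the letters ACGTG or GCGTG. Each window holds 250 bases before and 50 after a RefSeq gene start (GRCm38.p6), written 5′ to 3′ on the strand of the gene, with capitals for ACGTG and GCGTG on either strand (CACGT and CACGC when read on the printed strand). ACGTG inside CACGTG is counted on both strands. P4ha1 (chr10:59323046-59323345, plus strand) and P4ha2 (chr11:54100674-54100973, plus strand) are the prolyl hydroxylases, Kdm3a (chr6:71632868-71633167, minus strand) and Alkbh5 (chr11:60537433-60537732, plus strand) are the highest demethylases of histones and RNA. Plod3 (chr5:136986769-136987068, plus strand) and Fto (chr8:91313275-91313574, plus strand) are relatives with little difference.
P4ha1: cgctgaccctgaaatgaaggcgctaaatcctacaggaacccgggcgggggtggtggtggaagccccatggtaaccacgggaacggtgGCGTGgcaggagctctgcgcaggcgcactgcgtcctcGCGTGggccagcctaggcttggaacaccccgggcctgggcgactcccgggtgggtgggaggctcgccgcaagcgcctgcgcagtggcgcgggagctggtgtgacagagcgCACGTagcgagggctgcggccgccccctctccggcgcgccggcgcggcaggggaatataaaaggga
P4ha2: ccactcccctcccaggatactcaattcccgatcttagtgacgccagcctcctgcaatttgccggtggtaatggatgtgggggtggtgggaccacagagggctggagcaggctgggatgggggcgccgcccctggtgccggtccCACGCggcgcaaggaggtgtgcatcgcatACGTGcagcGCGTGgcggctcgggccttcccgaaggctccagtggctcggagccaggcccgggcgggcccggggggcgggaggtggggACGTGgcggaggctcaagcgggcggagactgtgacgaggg
Kdm3a: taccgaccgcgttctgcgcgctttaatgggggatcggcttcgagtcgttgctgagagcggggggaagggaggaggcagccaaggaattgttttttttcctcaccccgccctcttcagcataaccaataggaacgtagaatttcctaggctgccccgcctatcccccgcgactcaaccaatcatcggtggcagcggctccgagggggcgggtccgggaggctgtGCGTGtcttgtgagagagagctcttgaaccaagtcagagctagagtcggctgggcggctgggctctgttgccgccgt
Alkbh5: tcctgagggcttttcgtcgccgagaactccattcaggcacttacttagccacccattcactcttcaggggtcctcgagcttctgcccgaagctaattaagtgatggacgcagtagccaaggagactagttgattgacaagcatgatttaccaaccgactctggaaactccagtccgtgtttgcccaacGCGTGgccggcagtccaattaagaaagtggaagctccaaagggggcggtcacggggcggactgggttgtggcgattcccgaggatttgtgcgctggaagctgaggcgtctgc
Plod3: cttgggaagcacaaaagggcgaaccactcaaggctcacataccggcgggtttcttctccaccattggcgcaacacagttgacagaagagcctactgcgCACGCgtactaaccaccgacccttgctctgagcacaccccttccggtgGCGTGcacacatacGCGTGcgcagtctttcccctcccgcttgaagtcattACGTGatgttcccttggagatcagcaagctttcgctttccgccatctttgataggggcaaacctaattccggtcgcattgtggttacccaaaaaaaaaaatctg
Fto: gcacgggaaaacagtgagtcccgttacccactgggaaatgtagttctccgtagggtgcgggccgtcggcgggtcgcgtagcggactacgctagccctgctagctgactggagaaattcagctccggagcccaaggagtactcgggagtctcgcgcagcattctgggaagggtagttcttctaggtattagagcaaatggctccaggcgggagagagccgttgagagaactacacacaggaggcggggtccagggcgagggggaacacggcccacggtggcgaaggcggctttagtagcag

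The P4ha1 window holds 3 matches, P4ha2 4, Kdm3a 1 and Alkbh5 1. Plod3, whose counts differed little, holds 4 matches, and Fto holds none. Kdm3a has 2 further RefSeq windows, which hold no match. Windows were found for 33 of the 41 measured genes, 42 windows in all, and 25 of the 42 hold either motif (59.5%), beside 61.5% of the 12227 windows of compared genes and 43.8% of all 32851 windows. ACGTG alone was in 31.0% of the members' windows, 25.6% of those of compared genes and 19.6% of all. GCGTG was in 54.8%, 50.0% and 32.4%. Among the 10 genes higher with 1,10-Phen, 6 had a window (P4ha1, P4ha2, Kdm3a, Alkbh5, Jmjd6 and Kdm5b) and each of the 6 had a match, while 16 of the 27 others with a window did. A gene with several windows was counted if any of them matched. The share of all compared genes by this rule was not counted, so these counts by gene have no background. By window, either motif was in 6 of 8 (75.0%) for the genes higher with 1,10-Phen and in 19 of 34 (55.9%) for the others. A match is a description of these letters and no measure of binding.

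Histone lysine demethylases, 17 of them measured, had 4 members higher and 1 lower at 2-fold with 1,10-Phen, and 8 higher and 1 lower at 1.5-fold. Their median ratio was 0.47. The values are given by substrate, with close relatives beside each called gene.

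Among the H3K9 demethylases Kdm3a (chr6:71588970-71632990) had 1289 counts with IL4, 1156 with fatostatin, 1351 with betulin, 1790 with 25-HC, 1212 with PF429424 and 6294 with 1,10-Phen. The 1,10-Phen library was 5.61-fold above IL4 (log2 2.49, interval 2.40 to 2.58) and 4.14-fold above the next highest, 25-HC. Jmjd1c, of the same family, had 3414, 3600, 3645, 5347, 4103 and 5414 counts in the same order of libraries, so that 25-HC and 1,10-Phen were the highest pair (log2 0.61 and 0.87). Kdm3b, the nearest relative of Kdm3a, had between 1642 (PF429424) and 2442 counts (IL4) and a ratio of -0.08 with 1,10-Phen. Per length, Kdm3a stood at 0.857 times Kdm3b with IL4 alone and at 4.99 times with 1,10-Phen. Phf2 varied least of the 41 over the 5 libraries without 1,10-Phen, and had a ratio of 0.19 with it.

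Kdm4b (chr17:56325970-56403774), which removes methyl groups from H3K9 and H3K36, had 574 counts with IL4, 501 with fatostatin, 539 with betulin, 652 with 25-HC, 517 with PF429424 and 1449 with 1,10-Phen. This was 2.90-fold over IL4 (log2 1.53, interval 1.40 to 1.68). Kdm4a was at 0.68 and Kdm4c at 0.14 in the same comparison. Although Kdm4b had the largest ratio of the Kdm4 genes, its level per length with 1,10-Phen, 14.41 FPKM, was 0.658 times that of Kdm4a.

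Of the H3K4 demethylases Kdm5b (chr1:134560178-134632878) had 513 counts with IL4, 560 with fatostatin, 575 with betulin, 841 with 25-HC, 488 with PF429424 and 1742 with 1,10-Phen. It was highest with 1,10-Phen (3.89-fold over IL4, log2 1.96, interval 1.82 to 2.11) and second with 25-HC (1.60-fold, log2 0.68, interval 0.52 to 0.84). Kdm5c, the most abundant of the family per length with 27.67 FPKM in the IL4 library, had a ratio of 0.59 with 1,10-Phen, and Kdm5a one of 0.24. The Kdm5b level went from 0.638 times that of Kdm5a with IL4 alone to 1.92 times with 1,10-Phen.

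The H3K36 demethylases Kdm2a and Kdm2b, which bind unmethylated CpG islands, were called in opposite directions. Kdm2a (chr19:4316144-4398721) had 2797 counts with IL4, 2689 with fatostatin, 2868 with betulin, 3373 with 25-HC, 2584 with PF429424 and 5037 with 1,10-Phen. Its 2.07-fold ratio with 1,10-Phen (log2 1.05, interval 0.98 to 1.12) is just above the 2-fold line, and was below it with library totals (0.81) and on log2(FPKM + 1) (0.74). Kdm2b (chr5:122870664-122989270), which brings a Polycomb complex to CpG islands, had 961, 902, 917, 969 and 785 counts in the other 5 libraries and 380 with 1,10-Phen. That was 2.19-fold below IL4 (log2 -1.13, interval -1.31 to -0.96), and the remaining libraries lay close together. The level of Kdm2a per length was 1.64 times that of Kdm2b with IL4 alone, between 1.71 and 1.91 times with the other 4 compounds, and 7.64 times with 1,10-Phen.

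The H3K27 demethylase Kdm6b had 667 counts with IL4, 609 with fatostatin, 818 with betulin, 987 with 25-HC, 592 with PF429424 and 1048 with 1,10-Phen. Its ratio was 0.53 with 25-HC and 0.85 with 1,10-Phen, both under 2-fold, while its relative Kdm6a was at 0.12 with 1,10-Phen. Kdm7a, which acts on H3K9 and H3K27, was lowest with PF429424 (1990 counts against 3273 with IL4, log2 -0.64, interval -0.72 to -0.56) and at 0.47 with 1,10-Phen. Phf8, which acts on H3K9 and H4K20, was at 0.49 with 25-HC, 0.39 with PF429424 and -0.37 with 1,10-Phen. Kdm8 was at -0.23 with 1,10-Phen on 69 and 51 counts, and its interval included no change in that comparison.

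Of the other JmjC and asparaginyl hydroxylases 2 of 4 were called higher with 1,10-Phen. Jmjd6 (chr11:116837432-116843767), a nuclear JmjC protein that hydroxylates lysines of splicing factors, had 545 counts with IL4, 544 with fatostatin, 621 with betulin, 746 with 25-HC, 570 with PF429424 and 1863 with 1,10-Phen. The 1,10-Phen value was 3.92-fold over IL4 (log2 1.97, interval 1.84 to 2.12) and 2.94-fold over the next highest library. Asph (chr4:9449085-9669344), the endoplasmic reticulum enzyme that hydroxylates aspartate and asparagine in EGF-like domains, had 1631, 1961, 1882, 2581, 2151 and 5282 counts in the same order. All 5 compound libraries were above IL4, with 1,10-Phen at 3.72-fold (log2 1.90, interval 1.82 to 1.98) and 25-HC next (log2 0.63). Hif1an, the asparaginyl hydroxylase that limits HIF activity, had a ratio of 0.26 with 1,10-Phen (interval 0.14 to 0.38), and Jmjd4, which hydroxylates a translation release factor, one of 0.49.

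In the AlkB family 1 of 9 genes was called higher with 1,10-Phen, and the median ratio was -0.17. Alkbh5 and Fto both remove m6A, the methyl mark on adenosines of mRNA. Alkbh5 (chr11:60537683-60558512) had 2165 counts with IL4, 2215 with fatostatin, 2284 with betulin, 2957 with 25-HC, 2164 with PF429424 and 8224 with 1,10-Phen. It was 4.37-fold over IL4 with 1,10-Phen (log2 2.13, interval 2.06 to 2.20). Fto had 1275 counts with IL4 and 988 with 1,10-Phen, with the other 4 libraries between 1135 and 1298 counts, and a ratio of -0.17. Both had nearly the same level per length with IL4 alone, 17.60 and 17.63 FPKM, and stood at 65.02 and 13.28 FPKM with 1,10-Phen. The share of Alkbh5 in their sum was thus 50.0% with IL4 alone, 51.7% to 57.3% with the other 4 compounds and 83.0% with 1,10-Phen. Mettl3 and Mettl14, the writers of m6A, had ratios of 0.26 and 0.05 with 1,10-Phen.

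The remaining AlkB genes had smaller ratios. Alkbh2, a DNA repair enzyme, was measured on few counts: 58 with IL4, 85 with fatostatin, 89 with betulin, 81 with 25-HC, 71 with PF429424 and 77 with 1,10-Phen. Every compound library was above IL4, and the call at 1.5-fold was reached with betulin (log2 0.61, interval 0.13 to 1.13) and 1,10-Phen (log2 0.59). Both calls rest on the IL4 library: with the fatostatin library as reference the ratios were 0.06 and 0.04, and with the median of the 6 libraries 0.12 and 0.10. Alkbh1, which acts on tRNA, was at 0.63 with 25-HC and -0.28 with 1,10-Phen. The lowest ratio of the class with 1,10-Phen was -0.51, for Alkbh6, and Alkbh7 of the mitochondria was at -0.49. Alkbh4 was at -0.40, Alkbh8, which modifies wobble uridines of tRNA, at -0.11, and Alkbh3, which repairs alkylated DNA and RNA, at 0.07.

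**Figure D4:**
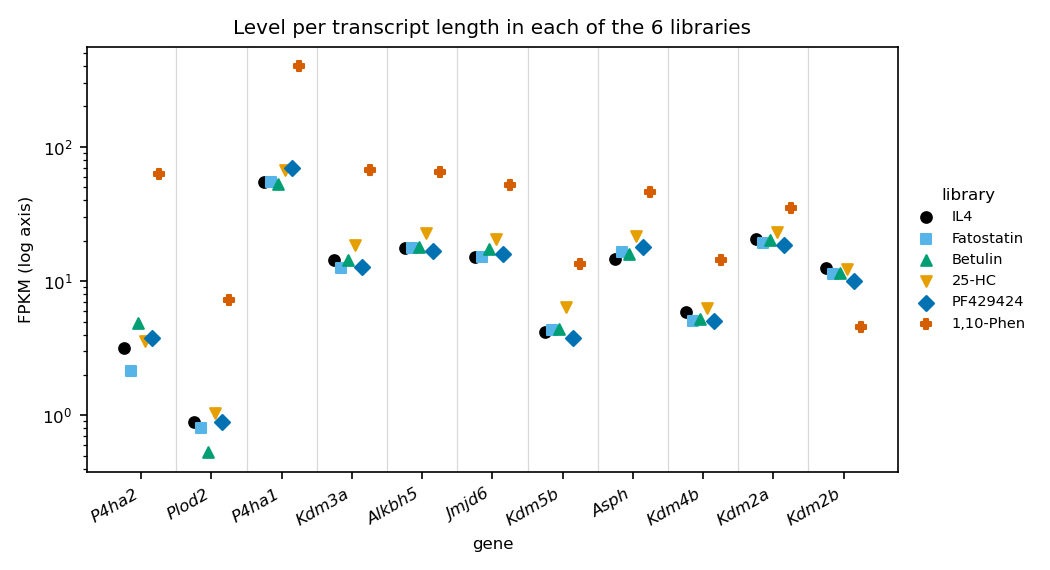
Deposited FPKM, on a log axis, of the 11 genes called at 2-fold or more with 1,10-Phen, with 1 point per library and no error bars because each treatment has 1 library. The 1,10-Phen point lies above the other 5 for 10 genes and below them for Kdm2b.

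The TET enzymes oxidise the methyl group of methylated cytosine in DNA. Tet2 had 1464 counts with IL4, 1157 with fatostatin, 1173 with betulin, 1282 with 25-HC, 792 with PF429424 and 735 with 1,10-Phen. All 5 compound libraries were below IL4, with log2 ratios of -0.80 for PF429424 (interval -0.93 to -0.68) and -0.79 for 1,10-Phen (interval -0.92 to -0.66). Both ended below 1.5-fold with another reference, at -0.48 and -0.47 against the fatostatin library and at -0.49 and -0.47 against the median of the 6 libraries. Tet3 was lower in the same pair of libraries, at 2169 and 2278 counts against 3398 with IL4 (log2 -0.57 and -0.37). Tet1 had at most 10 counts in a library and was not compared. The summed level of Tet2 and Tet3 was 13.0 FPKM with PF429424 and 13.4 FPKM with 1,10-Phen, and between 18.8 and 22.6 FPKM in the other 4 libraries. Neither gene reached 2-fold in TMM scaling.

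Phyh, which starts the breakdown of phytanic acid in peroxisomes, had 609 counts with IL4, 722 with fatostatin, 585 with betulin, 488 with 25-HC, 667 with PF429424 and 271 with 1,10-Phen. It was lowest with 1,10-Phen (log2 -0.96, interval -1.18 to -0.76), just under 2-fold. Ogfod1, which hydroxylates a ribosomal protein, had a ratio of -0.48, Ogfod2 one of -0.34 and Ogfod3 one of 0.41.

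At the looser 1.5-fold call the counts with the other 4 compounds were near or below the share of all genes. With 25-HC 4 of 41 were called higher (9.76%, where 9.02% of all genes were) and 1 lower (2.44%, where 12.5% were). The 4 were Kdm5b, Alkbh1, Asph and Jmjd1c, and the 1 was Plod1. None of the 4 was called with the fatostatin library or the median of the 6 libraries as reference, and Plod1 was called with both. The median over the 41 with 25-HC was 0.23 beside 0.01 over all genes, with intervals above no change for 21 (33.6% of all genes) and below it for 5 (31.5% of all genes). Of the 17 histone demethylases 13 had ratios above 0 with 25-HC, beside 50.7% of all genes, and their ratios ran from -0.12 to 0.68. With betulin 2 were called higher (4.88%, where 4.98% of all genes were), P4ha2 and Alkbh2, and Plod2 alone was lower (2.44%, where 6.33% were). P4ha2 was not called with the median as reference, nor Plod2 with the fatostatin library. With PF429424 none was called higher (7.39% of all genes) and 2 lower (4.88%, where 11.3% were), Tet2 and Kdm7a, and neither was called with either of the 2 other references. With fatostatin none was called in either direction, where 2.46% of all genes were higher and 2.77% lower. The widest fatostatin ratios were -0.50 for P4ha2 and 0.55 for Alkbh2. With 1,10-Phen 16 were called higher (39.0%, where 15.3% of all genes were) and 3 lower (7.32%, where 20.3% were). Of the 16, 14 were called with the fatostatin library as reference and 13 with the median. Calls with the median as reference, here and above, used the fold alone, with no counting interval. All 5 comparisons use the same IL4 library, so its own deviations enter each of them.

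P4ha2 and Plod2 took different directions with betulin. P4ha2 was at 0.67 (interval 0.38 to 0.99) and Plod2 at -0.65 (interval -1.28 to -0.09), on 234 and 41 counts. Both are collagen hydroxylases with low counts outside the 1,10-Phen library. Over the 5 compounds 20 of the 41 genes were not called at 1.5-fold in any comparison, 48.8% beside 51.6% of all compared genes, among them Kdm3b, Kdm5a, Kdm6a, Hif1an, Tet3, Plod3 and Fto.

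Further dioxygenases, 17 of a separate list of 23, had 4 genes higher and none lower with 1,10-Phen, where 7.59% of all genes were higher. Egln3, a HIF prolyl hydroxylase, had 25 counts with IL4, 34 with fatostatin, 39 with betulin, 43 with 25-HC, 163 with PF429424 and 11529 with 1,10-Phen. Its log2 ratio was 8.94 with 1,10-Phen and 2.69 with PF429424, and its relative Egln1 was at 2.88 with 1,10-Phen. The lowest well-measured genes of the list with 1,10-Phen were Hr, a JmjC protein of hair follicle biology (-0.71), and Tmlhe, of carnitine synthesis (-0.02). With betulin 1 of the 17 was lower, Hr (-1.65), where 2.29% of all genes were, and none higher. With 25-HC 1 was higher, Rsbn1 (1.05), where 3.27% of all genes were, and none lower. With PF429424 Egln3 was higher (2.49% of all genes), and Hr (-1.55) and Jmjd7 (-1.27, on 54 and 20 counts) were lower (5.63%). With fatostatin none was called. In a list of 14 HIF targets, which also holds Egln3, 12 were called higher with 1,10-Phen, where 7.59% of all genes were. The numbers with fatostatin, betulin, 25-HC and PF429424 were 1, 0, 1 and 1, where 0.874%, 1.91%, 3.27% and 2.49% of all genes were higher. The list had a median of 3.28 with 1,10-Phen. Its highest ratios were those of Egln3 and Ero1l, an oxidase of protein folding (5.10), and its lowest those of Car9 (-0.25) and Bhlhe40 (0.48).

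The enzymes that make or use 2-oxoglutarate, succinate and fumarate, 22 genes, had none higher and 3 lower with 1,10-Phen, where 11.8% of all genes were lower, with a median of -0.34. Idh2, the mitochondrial isocitrate dehydrogenase that gives 2-oxoglutarate, was at -1.22, and the fumarase Fh1 at -1.15. The highest were the alanine aminotransferase Gpt2 (0.85) and D2hgdh (0.36). Counting intervals lay below no change for 16 of the 22, beside 4402 of all 11898 genes (37.0%). They lay above no change for 2 of the 22 and for 4278 of all genes.

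Among 23 writers and flavin-dependent demethylases that act on the same marks, none was higher and 3 were lower with 1,10-Phen, where 11.8% of all genes were lower, with a median of 0.05. These were Uhrf1, which guides maintenance methylation of DNA (-4.64), the H3K27 methyltransferase Ezh2 (-2.33) and the DNA methyltransferase Dnmt3a (-1.09). The highest were Ezh1 (0.67) and the flavin enzyme Kdm1b (0.50). Uhrf1 and Ezh2 are abundant in dividing cells, and the G2/M genes were low in the same library, with a median of -4.95; the part of that in these values was not tested.

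The sources used here do not state whether counting used strand, so reads of genes that overlap on opposite strands cannot be told apart. In GENCODE M21 exons on the opposite strand cover 29.5% of the exonic bases of Alkbh2 (Usp30), 19.0% of Asph (Clvs1), 17.0% of Ogfod3 (Hexdc), 16.1% of Plod3 (Znhit1), 10.3% of Jmjd6 (Mettl23), 10.7% of Kdm2b (Rnf34) and 9.32% of Plod2 (Gm38391). Usp30 had 345 counts with IL4 and 264 with 1,10-Phen, more than Alkbh2 itself, and Znhit1 had 850 and 1152. Mettl23 had 222 counts with IL4 and 275 with 1,10-Phen, and Rnf34 had 549 and 397, which are smaller differences than those of Jmjd6 and Kdm2b. No opposite-strand exon was found over P4ha1, P4ha2, Kdm3a, Kdm5b, Kdm4b, Kdm2a or Alkbh5.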

How the data were processed

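Each library's table was used with its gene symbols. Per the file headers, the authors deposited an estimated count (expected count) and an FPKM per gene. HISAT2, Bowtie2, DESeq2 and RSEM 1.2.12 are named in the submitters' processing notes, with no role or strand setting. Between 30.5% and 32.0% of a library's estimated counts were not whole, and all were rounded. TMM factors over the 6 libraries came from edgeR 4.0.16 (R 4.3.3), used for scaling alone. Genes with at least 1 CPM in at least 1 library were kept. Log2 ratios used a prior count of 2, and the 3-count floor equals 0.137 to 0.161 CPM. With 1 library per treatment no test was run and no p-value is given.

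All measured members are named; those called at 2-fold have full values. Of other lists, genes named are the 2 with the highest and the 2 with the lowest ratio at 5 CPM or more in either library, and additional genes were chosen after their values were seen. A gene that this rule selects is not reported here. Members, lists and motifs were chosen with earlier results of these data known. Promoter windows of 300 bases are from RefSeq (GRCm38.p6), and exon overlaps from GENCODE M21. Alternatives were DESeq2 1.42.0 size factors, library totals, other filters and prior counts, log2(FPKM + 1) and other references.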

Additional observations from a re-analysis of the deposited data

How the results depend on the processing

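Counts of members called and their medians were kept in 128 recomputations and moved in 14. A count was kept within 1.5 times the main count, and a median within the main median's order-statistic interval over members. That interval reflects the spread over genes and measures no spread between libraries. With 1,10-Phen it ran from -0.11 to 0.64, so medians of 0.00 with library totals and 0.02 on log2(FPKM + 1) counted as kept. Ratios of single members called at 1.5-fold stayed within their counting interval in 188 recomputations and left it in 71, with no change of sign. Recounting the 1.5-fold calls in each setting was added after seeing the data: with log2(FPKM + 1), 0 of 4 higher calls with 25-HC, 0 of 2 with betulin and 11 of 16 with 1,10-Phen were kept, and with library totals 3, 1 and 12. Of the 11 genes called with 1,10-Phen, 10 were still called with library totals and with log2(FPKM + 1), where Kdm2a was lost, and 11 in the other settings at 2-fold. Calls with log2(FPKM + 1) or with the median of the 6 libraries as reference used the fold alone, with no counting interval. Genes called lower with 1,10-Phen numbered 3 with library totals (adding Tet2 and Phyh), 2 with no filter (adding P4ha3), and 2 with log2(FPKM + 1) or with the fatostatin library as reference (adding Phyh). With no filter 1 gene, Tet1, was lower with 25-HC. With the fatostatin library as reference 1 gene, P4ha2, was higher with betulin. The PF429424 median was -0.06 with library totals and 0.08 with TMM, where library totals moved the median of all genes to -0.11. At 1.5-fold, 2 genes were higher and 1 lower with betulin, 4 higher and 1 lower with 25-HC, 2 lower with PF429424, and 16 higher and 3 lower with 1,10-Phen. Beyond these constructions the cause was not tested. No paired analysis was possible because each treatment has 1 library, and for the same reason no library could be left out of a group. Counts of Plod2, Alkbh2 and Kdm8 were under 100 in most libraries, so their intervals were wide.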
